A study of Rattus norvegicus with 12 samples.

Results

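Osteoclasts are the cells that dissolve bone. Described here are 10 genes of their differentiation and of resorption, in the blood clot that fills a bone gap 3 days after the bone is cut. The genes were Tnfsf11, Tnfrsf11a, Tnfrsf11b and Nfatc1 (the RANKL system), Dcstamp and Atp6v0d2 (cell fusion), and Acp5, Ctsk, Slc9b2 and Calcr (resorption and the mature cell). They were listed by name, and a probe set was taken for a gene when the platform annotation gave it that symbol and no other. This left 11 probe sets for 8 of the 10 genes, out of 31042 probe sets tested. Neither fusion gene had a probe set, so that Dcstamp and Atp6v0d2 were not analysed here. Tnfsf11, Slc9b2 and Calcr had a pair of probe sets each, and the one with the highest mean over the 12 arrays stood for the gene.

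All animals were female Sprague-Dawley rats whose left femur was cut at midshaft, held apart at a gap of 1.5 mm and bridged with an external fixator, so that no uninjured group was measured. Young rats were 12 weeks old and old rats 52 weeks. The fixator stood 7.5 mm from the bone in the rigid setting and 15 mm in the semi-rigid one. Crossing age with fixator gave 4 groups. YSR and OSR are the young and the old rats with the semi-rigid setting, YR and OR those with the rigid one, each group with 9 animals combined into 3 pools of 3, and each pool had 1 array. The spread between arrays is therefore a spread between pools, and the number of arrays limits the precision. Because whole clot was measured, fewer cells of a type and less RNA per cell cannot be told apart.

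RANKL, encoded by Tnfsf11, is presented by osteoblast-lineage cells, osteocytes and lymphocytes, and binds its receptor RANK (Tnfrsf11a) on precursors of the monocyte lineage. Osteoprotegerin (Tnfrsf11b) is a soluble decoy that catches RANKL before it reaches RANK. RANK signalling induces NFATc1, the transcription factor that switches on the fusion genes and, together with AP-1, PU.1 and MITF, the genes of the resorbing cell. The mature cell acidifies the bone surface and secretes cathepsin K, and it also carries tartrate-resistant acid phosphatase and the calcitonin receptor.

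The promoters of the ligand and of both enzymes are shown because of their correlations across the 12 arrays. Acp5 and Ctsk had a Pearson r of 0.83, and Tnfsf11 (by its brighter probe set) and Acp5 one of -0.01. With each array taken as its deviation from the group mean, these were 0.73 and -0.67. For the dimmer probe set of Tnfsf11 they were not computed. The RefSeq table (GRCr8) held 5 promoters for 4 of the members, Acp5 (2 of the 5), Ctsk, Calcr and Tnfsf11, each from 250 bases before to 50 bases after the start. Capitals mark matches, on either strand, to GGAAA (the NFAT core, which reads TTTCC on the other strand), CATGTG (an E-box that MITF can bind, CACATG on the other strand) or GAGGAAG (the PU.1 core, CTTCCTC on the other strand).
Ctsk, chr2:185747298-185747597, plus strand: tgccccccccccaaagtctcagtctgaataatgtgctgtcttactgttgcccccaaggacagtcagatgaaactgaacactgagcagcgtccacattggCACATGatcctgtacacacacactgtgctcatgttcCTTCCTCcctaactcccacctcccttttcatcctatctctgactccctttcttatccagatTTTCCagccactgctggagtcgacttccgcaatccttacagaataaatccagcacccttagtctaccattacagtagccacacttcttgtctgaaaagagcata
Acp5, chr8:28943880-28944179, minus strand: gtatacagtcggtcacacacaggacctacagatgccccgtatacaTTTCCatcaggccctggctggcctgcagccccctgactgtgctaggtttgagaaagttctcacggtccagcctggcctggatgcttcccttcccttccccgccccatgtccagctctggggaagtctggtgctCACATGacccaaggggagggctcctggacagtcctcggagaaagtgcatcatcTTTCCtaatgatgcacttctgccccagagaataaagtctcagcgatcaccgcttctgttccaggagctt
Tnfsf11, chr15:60114430-60114729, minus strand: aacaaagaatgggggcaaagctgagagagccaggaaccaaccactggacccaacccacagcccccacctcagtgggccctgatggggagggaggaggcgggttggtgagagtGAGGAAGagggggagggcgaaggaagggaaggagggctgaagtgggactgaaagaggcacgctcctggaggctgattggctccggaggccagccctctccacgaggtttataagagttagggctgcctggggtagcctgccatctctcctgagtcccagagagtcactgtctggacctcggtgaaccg
The Ctsk window held 1 NFAT core, 1 E-box and 1 PU.1 core. This Acp5 window held 2 NFAT cores and 1 E-box, and that of Tnfsf11 held 1 PU.1 core. The other Acp5 promoter and that of Calcr held none of these letters, and no member's window held the AP-1 letters TGANTCA or the E-box CACGTG. Of 33469 promoters of the same length, 62.7% held GGAAA at least once and 28.5% at least 2 times, 14.0% held CATGTG, 12.4% GAGGAAG, 7.33% TGANTCA and 6.42% CACGTG. The PU.1 and NFAT matches did not overlap. These are letter matches in the reference and were not measured in the clot.

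Arrays differed in RNA quality, as read from control probe sets at the 3' and 5' ends of Gapdh and actin. The log2 ratio of the 3' to the 5' signal was 6.69 for Gapdh on YSR 1 and 2.95 on OR 1, 1.02 to 1.59 on the YR arrays and 0.33 to 0.49 on the other 7. The same arrays stood highest by actin, with 6.88 on YSR 1 and 3.34 on OR 1, and with 1.77 to 2.06 on the YR arrays. Where leaving out YSR 1 and OR 1 moved a reported difference of a member's brightest probe set by over 1.5 times, the value without them is given beside it. Differences by the dimmer probe sets of Tnfsf11, Slc9b2 and Calcr were not examined in this way. The clot carried strong red cell signal, with a group mean log2 signal of 15.12 to 15.49 for Hbb, and strong macrophage signal, with 13.31 to 13.89 for Cd68. Of the 8 measured osteoblast and osteocyte markers, Col1a1 and Spp1, which other cells of the clot also express, had group means of 14.14 to 15.78, Ibsp 6.58 to 10.73 and Alpl 5.49 to 7.52. The late markers Bglap, Phex, Dmp1 and Sost lay between 3.46 and 6.60.

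With limma over all 31042 probe sets, none of the 8 measured genes passed an adjusted p of 0.05 in any of the 7 comparisons. Over all probe sets this threshold was passed by 0.00644% for age averaged over fixation, by 0.00322% for OR against YR and by 0.00322% for OSR against YSR. It was passed by 0% for fixation averaged over age, for the interaction, for YR against YSR and for OR against OSR. At an unadjusted p under 0.05, 4 of the 8 genes were higher in old rats (Tnfsf11, Acp5, Ctsk and Slc9b2), a direction and threshold that 4.70% of all probe sets met. Without YR 1 or without OSR 2 it was 2 of the 8, Acp5 and Slc9b2. Without YSR 1 and OR 1 it was again 4, with Tnfrsf11a in place of Ctsk. None was lower in old rats (background 3.89%). The resorption genes Acp5, Ctsk and Slc9b2 were higher in OR than in YR at that threshold (background 4.80%) and had a positive interaction (background 2.37%), that is, a larger rigid minus semi-rigid difference in old than in young rats. Tnfrsf11a joined them in OR against YR without YSR 1 and OR 1, for 4 of 8. Tnfsf11 had an interaction of the opposite sign at the same threshold (background 1.43%), and no member was lower in OR than in YR (background 3.54%). Between the semi-rigid groups the higher ones were instead Tnfsf11 and Slc9b2 (background 2.03%). OR was higher than OSR for Acp5 and Slc9b2 (background 2.83%), YR was higher than YSR for Tnfsf11 (background 1.60%), and Tnfrsf11b was lower under rigid fixation averaged over age (background 3.20%). In the 12 fits that left out 1 array each, Acp5 and Slc9b2 stayed past the unadjusted threshold in all 12 for age, for the interaction and for OR against YR, and Ctsk in 4, 5 and 12. Tnfsf11 stayed past it in all 12 for OSR against YSR, in 10 for YR against YSR, in 7 for age and in 8 for the interaction. Tnfrsf11b did so in 10 for fixation, Slc9b2 in 5 for OSR against YSR, and Acp5 and Slc9b2 in 11 each for OR against OSR. These comparisons share arrays, so that their counts do not stand for separate evidence.

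The median difference between old and young over the 8 genes was 0.43 on the log2 scale, against 0.02 over all probe sets, and 6 of the 8 were positive, against 53.1% of all probe sets. Under rigid fixation the median of OR minus YR was 0.34 against 0.04, with 7 of 8 positive, against 54.2% of all probe sets. The smallest of these positive differences were 0.09 for Tnfsf11 (SE 0.72) and 0.05 for Calcr (SE 0.86). For YR minus YSR the median was -0.38 against -0.02, with 3 of 8 positive, against 47.4% of all probe sets.

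**Figure D1:**
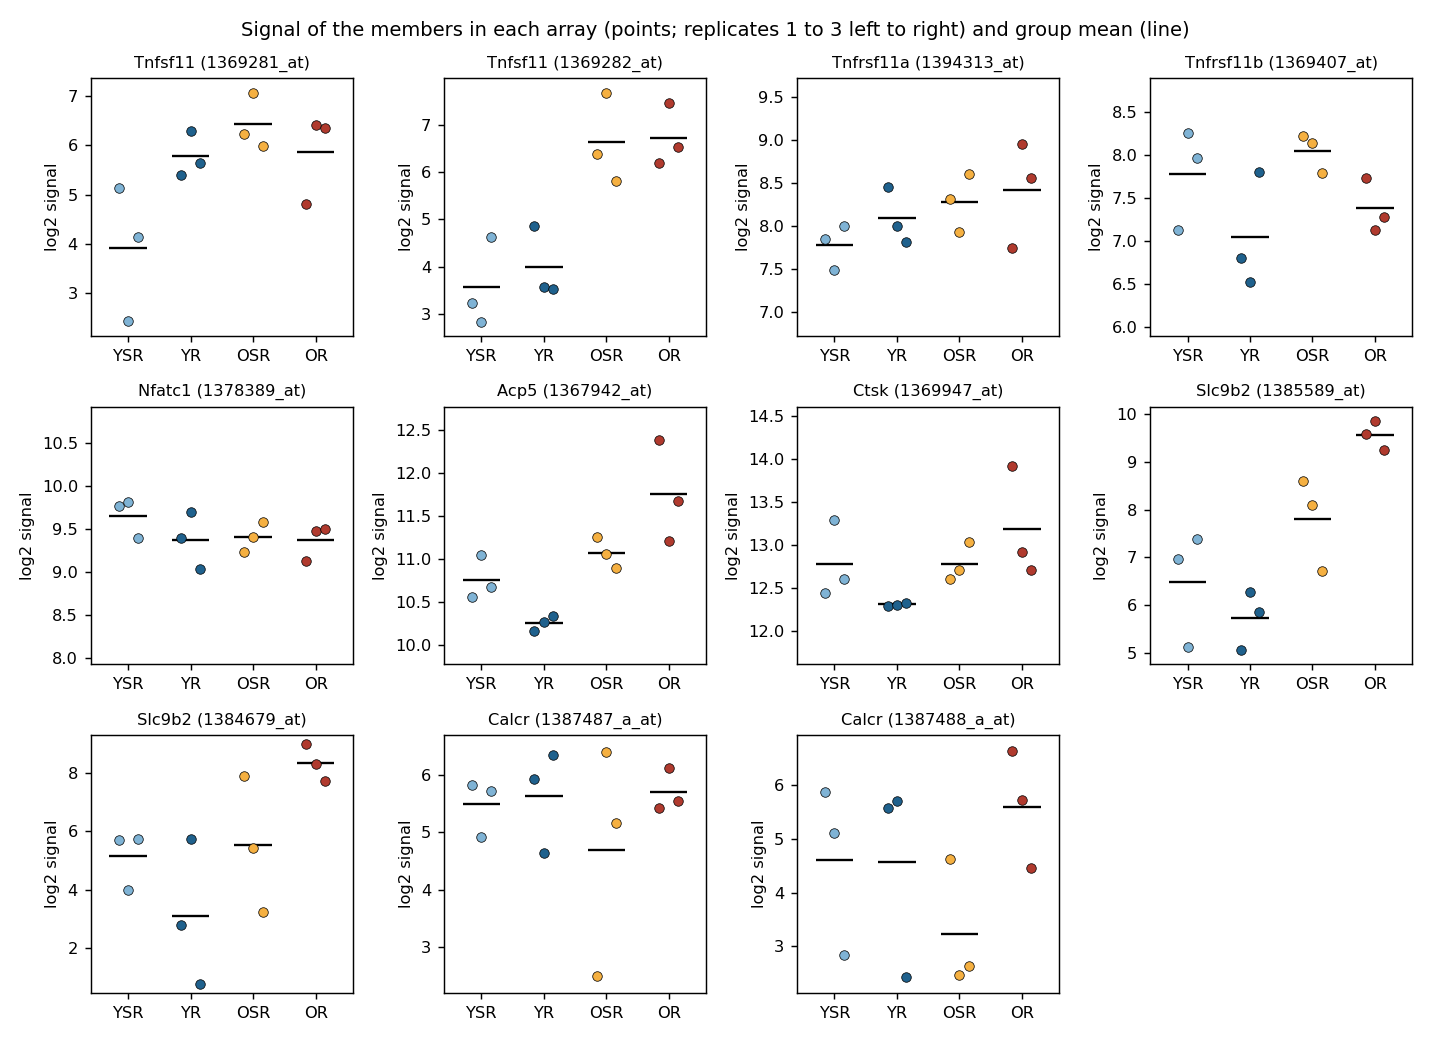
Log2 signal of each of the 11 probe sets of the members on the 12 arrays (points, 3 per group) with the group mean (line). The range of the vertical axis differs between panels. For Slc9b2 (1385589_at) and Acp5 the OR arrays stand above every YR array, and for Tnfsf11 (1369282_at) every old array stands above every young one.

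Of the RANKL system, the ligand differed most between groups. The probe set 1369282_at of Tnfsf11 read 9.4, 7.1 and 24.6 signal units in YSR, 29.3, 11.9 and 11.5 in YR, 84.1, 206.3 and 56.5 in OSR, and 73.5, 175.6 and 92.3 in OR. All 6 old arrays stood above all 6 young arrays, from 56.5 upward against 29.3 and below. The difference between old and young was 2.91 on the log2 scale (SE 0.50, 7.50-fold, limma adjusted p = 0.111). A complete separation with old above young was seen for 0.229% of all probe sets. Such a share was counted for this and for OR above YR, but for no other separation given here. None of the 8 genes separated old from young in this way by its brightest probe set. For Tnfsf11 the brighter one was 1369281_at, with a mean of 5.50 against 5.23, and the members' counts rest on it.

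By 1369281_at, Tnfsf11 read 35.3, 5.4 and 17.8 in YSR, 41.9, 79.0 and 50 in YR, 75.5, 133.4 and 63.4 in OSR, and 28.2, 85.9 and 81.6 in OR. Here YSR alone was low, since every YR and every OSR array exceeded every YSR array, while OR overlapped with all 3 other groups. The age difference was 2.52 (SE 0.72, adjusted p = 0.959) under semi-rigid fixation and 0.09 (SE 0.72, adjusted p = 0.987) under rigid fixation. The interaction was -2.43 (SE 1.02, adjusted p = 0.990). By 1369282_at the age difference was 3.07 (SE 0.71, adjusted p = 0.959) and 2.74 (SE 0.71, adjusted p = 0.304), with an interaction of -0.34 (SE 1.00, adjusted p = 0.994). Both probe sets therefore gave a higher ligand signal in OSR than in YSR, and they disagreed on OR against YR. They also disagreed on the effect of the fixator in young rats, where YR minus YSR was 1.87 (SE 0.72) by the first and 0.43 (SE 0.71) by the second, both with an adjusted p of 0.991. By the first, leaving out 1 array gave 1.13 (without YSR 2) to 2.49 (without YSR 1). Without YSR 1 and OR 1, OR minus YR was 0.61 by this probe set. At these low signals the SD within a group reached 1.37 on the log2 scale. Ibsp, the gene of bone sialoprotein and an osteoblast marker, also had its lowest mean log2 signal in YSR, at 6.58 (SD 3.47). Its means were 10.57 for YR, 9.20 for OSR and 10.73 for OR, with YR minus YSR at 3.99 (SE 1.51, limma adjusted p = 0.991). This difference was positive for 5 of the 8 measured osteoblast and osteocyte markers. It was negative for Col1a1 (-0.44), Dmp1 (-0.71) and Sost (-0.42). The part of osteoblast-lineage cells in the Tnfsf11 differences was not tested.

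RANK, the receptor, showed a geometric mean of 219 for YSR, 271 for YR, 311 for OSR and 341 for OR. The arrays read 231.4, 178.4 and 256.0 in YSR, 348.8, 255.7 and 223.7 in YR, 317.1, 244.4 and 388.7 in OSR, and 213.4, 495.5 and 374.2 in OR. All neighbours in this order overlapped. Old minus young was 0.42 for Tnfrsf11a (SE 0.22, limma adjusted p = 0.632) and rigid minus semi-rigid 0.22 (SE 0.22, adjusted p = 0.907). Leaving out 1 array gave 0.28 (without OR 2) to 0.59 (without OR 1) for age and 0.08 to 0.39 for fixation, with the same arrays at the ends. Without YSR 1 and OR 1 they were 0.60 (adjusted p = 0.401) and 0.41 (adjusted p = 0.724).

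Osteoprotegerin had a lower mean under the rigid than under the semi-rigid fixator at both ages. Tnfrsf11b read 139.4, 306.0 and 249.0 in YSR, 297.3, 281.9 and 220.9 in OSR, 212.8, 139.4 and 155.0 in OR, and 111.2, 91.5 and 222.4 in YR. Its geometric means were 265 in OSR, 220 in YSR, 166 in OR and 131 in YR. Every OR array stood below every OSR array, whereas YR and YSR overlapped. Rigid minus semi-rigid was -0.71 on the log2 scale (SE 0.27, 1.63-fold, limma adjusted p = 0.845), made up of -0.74 in young (SE 0.38) and -0.67 in old rats (SE 0.38). Old minus young was 0.30 (SE 0.27, adjusted p = 0.786) and came to 0.05 without YSR 1 and OR 1.

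The balance of ligand to decoy was taken as log2 Tnfsf11 minus log2 Tnfrsf11b, relative to its mean over the 12 arrays, since signals of different probe sets cannot be set against each other. By 1369281_at the group means were -1.81 for YSR, 0.81 for YR, 0.45 for OSR and 0.55 for OR. By 1369282_at they were -1.89, -0.71, 0.92 and 1.68. YSR had the lowest group mean by both probe sets, and within YSR the arrays ranged from -3.76 to 0.08 by the first and from -3.10 to -1.01 by the second. The order of the other groups depended on the probe set.

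NFATc1 had the narrowest range of group means among the members, from 9.37 to 9.66 on the log2 scale. Its arrays read 868.8, 899.3 and 671.3 in YSR, 672.4, 825.0 and 523.8 in YR, 602.4, 680.8 and 765.1 in OSR, and 560.0, 713.0 and 724.8 in OR. The ranges of all 4 groups overlapped, and old minus young was -0.12 (SE 0.14, limma adjusted p = 0.826) and rigid minus semi-rigid -0.16 (SE 0.14, adjusted p = 0.897). They were -0.04 and -0.07 without YSR 1 and OR 1. NFATc1 is also controlled at the protein level, which an array does not see and which was not tested.

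Acp5, the gene of tartrate-resistant acid phosphatase, had the highest signal in OR. It read 5313.9, 2370.7 and 3256.5 in OR, 2430.5, 2132.7 and 1901.9 in OSR, 1506.7, 2103.8 and 1633.3 in YSR, and 1142.1, 1232.2 and 1295.5 in YR. OR stood wholly above YR, and YR wholly below YSR, while OR and OSR overlapped, as did OSR and YSR. Of the 6 old arrays 5 exceeded every young array. Old minus young was 0.90 (SE 0.17, 1.87-fold, limma adjusted p = 0.129).

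By fixation, the age difference of Acp5 was 1.50 under the rigid fixator (SE 0.24, 2.82-fold, limma adjusted p = 0.146) and 0.31 under the semi-rigid one (SE 0.24, adjusted p = 0.959). The difference of these differences, 1.19 (SE 0.33), had an adjusted p of 0.990. OR 1, the array with the highest Acp5 signal, was also the one with the high 3' to 5' ratio. Without it and YSR 1, OR minus YR was 1.19 (adjusted p = 0.0618) and OR minus OSR was 0.37 in place of 0.69. Without OR 2, OR minus YR was 1.77 and passed the threshold (adjusted p = 0.0480).

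Ctsk encodes cathepsin K, the protease that cleaves bone collagen, which fibroblasts and macrophages can express as well. It read 15485.8, 7695.0 and 6721.0 in OR, 6207.4, 6702.3 and 8352.5 in OSR, 5549.7, 10008.9 and 6225.7 in YSR, and 4999.6, 5029.5 and 5122.9 in YR. The YR arrays agreed closely and lay below all others, while the other 3 groups overlapped, with geometric means of 9290 in OR, 7030 in OSR and 7020 in YSR. OR minus YR was 0.88 (SE 0.28, 1.84-fold, limma adjusted p = 0.401) and old minus young 0.44 (SE 0.20, adjusted p = 0.572). The interaction was 0.88 (SE 0.40, adjusted p = 0.990). OR 1 again stood apart: without it and YSR 1, OR minus YR was 0.51, old minus young 0.17 and OR minus OSR 0.03 in place of 0.40. Of the 4 fibroblast markers Lum and Col3a1 were higher in OR as well, with OR minus YR at 0.60 and 0.40 and OR minus OSR at 0.51 and 0.40, while Dcn and Pdgfra had OR minus YR at -0.38 and -0.48. The summed signal of the 4 was 54107 to 62646 in YSR, 47643 to 69494 in YR, 46553 to 65114 in OSR and 64878 to 82771 in OR. Col3a1 and Lum had the highest signals in it. The part of fibroblasts in the Ctsk differences was not tested. The YR arrays, the lowest for Acp5 and Ctsk, had Gapdh 3' to 5' ratios of 1.02 to 1.59, above those of the OSR arrays, and the part of RNA quality in these differences was not tested.

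Slc9b2 encodes a sodium/proton exchanger that is abundant in osteoclasts, where it is also called NHA2. Its brighter probe set, 1385589_at, read 767.6, 923.3 and 606.3 in OR, 384.9, 272.7 and 105.4 in OSR, 125.3, 34.7 and 167.5 in YSR, and 33.4, 77.6 and 58.2 in YR. The OR arrays stood above all 9 others. OSR overlapped with YSR, and YSR with YR. Old minus young was 2.57 (SE 0.42, 5.93-fold, limma adjusted p = 0.0954), the lowest adjusted p of age among the members, with 5 of 6 old arrays above every young one.

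The age difference of Slc9b2 was 3.83 under rigid fixation (SE 0.59, 14.2-fold, limma adjusted p = 0.146) and 1.31 under semi-rigid fixation (SE 0.59, adjusted p = 0.959), with an interaction of 2.52 (SE 0.84, adjusted p = 0.990). OR minus OSR was 1.76 (SE 0.59, adjusted p = 0.896) and YR minus YSR -0.76 (SE 0.59, adjusted p = 0.991). Leaving out 1 array, OSR minus YSR ranged from 0.62 (without YSR 2) to 1.85 (without OSR 3) and YR minus YSR from -1.44 (without YSR 2) to -0.31 (without YSR 3). Without YSR 1 and OR 1 the rigid age difference was 3.81. It passed the threshold when the spread was taken from the 6 YR and OR arrays alone (adjusted p = 0.0157) and without YSR 2 (adjusted p = 0.0497), and old minus young passed it without OSR 3 (2.84, adjusted p = 0.0278). The second probe set, 1384679_at, was dimmer, at 504.5, 316.7 and 212.8 in OR, 236.8, 43.5 and 9.4 in OSR, 52.2, 15.9 and 52.6 in YSR, and 6.9, 53.2 and 1.7 in YR. Its OR and YR arrays did not overlap either, and OR minus YR was 5.24 (SE 1.25, adjusted p = 0.248). YR had the lowest group mean of Slc9b2 by both probe sets, 5.73 and 3.10 on the log2 scale. The fit without YSR 1 and OR 1 kept the YR arrays, with Gapdh 3' to 5' ratios of 1.02 to 1.59. The part of RNA quality in the Slc9b2 differences was not tested.

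By brightest probe set, no OR array fell to the level of a YR array for Acp5, Ctsk and Slc9b2, 3 of 8 genes. This state was shared by 7.75% of all probe sets in that direction. By its dimmer probe set, 1369282_at, Tnfsf11 was in this state too.

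**Figure D2:**
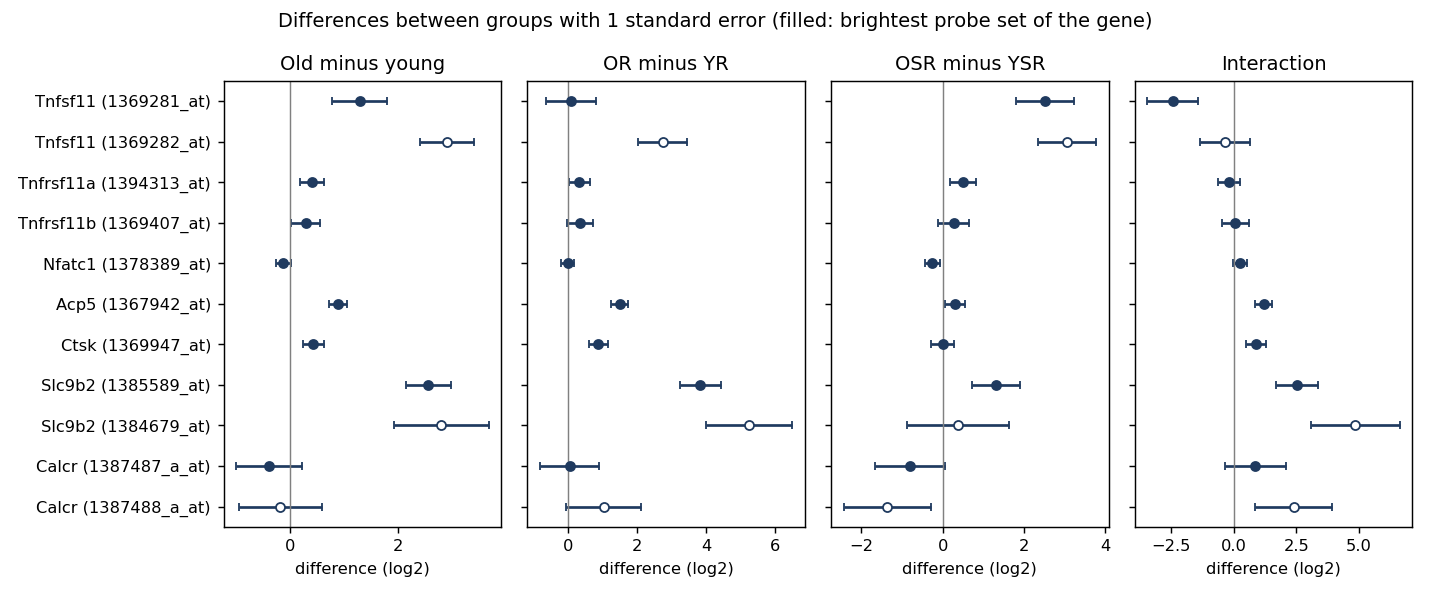
Differences between groups on the log2 scale for the 11 probe sets, with 1 standard error from limma (filled points, the brightest probe set of a gene). For Acp5, Ctsk and Slc9b2 OR minus YR is larger than OSR minus YSR, while for Tnfsf11 (1369281_at) it is smaller, 0.09 against 2.52.

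Calcr, the calcitonin receptor of the mature osteoclast, stayed dim. Its brighter probe set read 56.7, 30.3 and 53.2 in YSR, 61.1, 25 and 82.3 in YR, 5.6, 84.5 and 35.9 in OSR, and 43.2, 69.5 and 46.8 in OR, so that all groups overlapped. Old minus young was -0.38 (SE 0.61, limma adjusted p = 0.887), and this sign rested on OSR 1, without which it was 0.17. It was -0.23 without YSR 1 and OR 1. The second probe set lay between 5.4 and 98.8 over the 12 arrays, with an age difference of -0.17 (SE 0.77, adjusted p = 0.965). Its OR minus OSR was 2.36 (SE 1.08, adjusted p = 0.901), against 1.02 (SE 0.86, adjusted p = 0.914) by the brighter one, and its interaction 2.40 (SE 1.53, adjusted p = 0.990), against 0.86 (SE 1.21, adjusted p = 0.990).

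The 3 resorption genes did not move as one. Over the 12 arrays log2 Acp5 and log2 Ctsk had a Pearson r of 0.83, and 0.73 when each array was taken as its deviation from the group mean. For Acp5 and Slc9b2 r was 0.77, but -0.12 within groups, and for Ctsk and Slc9b2 it was 0.41 and -0.49. These correlations used the brighter probe set of Slc9b2, 1385589_at. By it Acp5 and Slc9b2 shared their order of groups, and within OSR their order of arrays, but not the order within YSR, YR or OR. OR 1 was the highest OR array for Acp5 and Ctsk, and OR 2 for Slc9b2. By the dimmer probe set of Slc9b2, 1384679_at, OR 1 was the highest as well. These values describe 12 arrays that share 4 groups and 1 scaling.

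Among the 9562 genes at least as bright as the median probe set, the 5 most like Slc9b2 across the arrays were Mmp9 (r = 0.956), Prdm1 (0.953), Mmp13 (0.941), Sphk1 (0.934) and Adipoq (0.928). Since they were chosen for this correlation over the same arrays, it is a description only. Mmp9 and Mmp13 are collagenolytic proteases, Prdm1 encodes the repressor Blimp1, Sphk1 makes sphingosine 1-phosphate and Adipoq is an adipocyte hormone. The mean log2 signal of Mmp13 was 9.45 and 9.75 in the young groups YSR and YR, and 11.07 and 12.51 in the old groups OSR and OR. The nearest genes to Acp5 were Rasd1 and Tank (both 0.901), Creb3l2 (0.892), Sncg (0.888) and Usp42 (0.871), and those to Ctsk were Xrcc2 (0.880), Sox13 and Prkch (both 0.859), Gusb (0.852) and Tti1 (0.851). No gene was on more than 1 of the 3 lists.

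**Figure D3:**
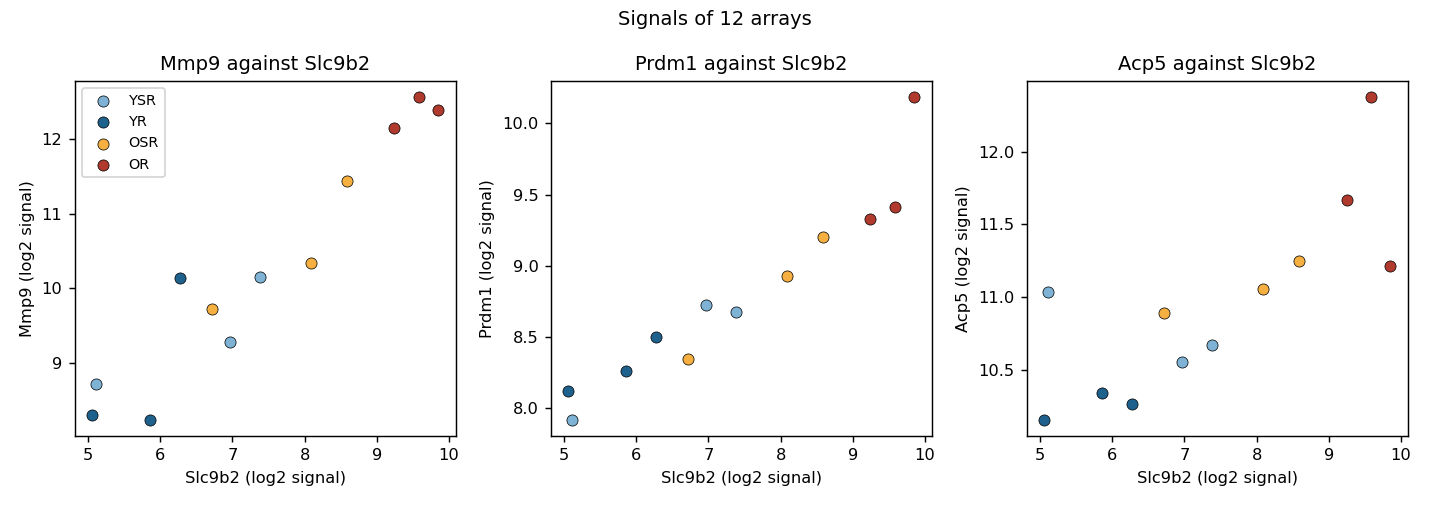
Log2 signals of Mmp9, Prdm1 and Acp5 against that of Slc9b2 on the 12 arrays, coloured by group. Mmp9 and Prdm1 were picked for their correlation with Slc9b2 over these arrays (r = 0.956 and 0.953), and Acp5 was not (r = 0.77).

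Cell type markers differed in level with age as well. Of the adipocyte markers Adipoq, Plin1, Cidec, Lep and Lipe, 3 of 5 were higher in old rats at an unadjusted p under 0.05 (background 4.70%). The differences were 2.89 for Adipoq, 2.36 for Plin1 and 3.08 for Cidec on the log2 scale. Lep, at -0.73, and Lipe, at -0.16, did not meet the threshold. The summed signal of all 5 was 597 to 719 in YSR, 358 to 817 in YR, 587 to 1864 in OSR and 1142 to 2227 in OR. Of the neutrophil markers 3 of 4 measured were higher (background 4.70%), S100a8 by 1.68, S100a9 by 1.45 and Camp by 1.86. Csf3r was not, at -0.13. Over the 4 markers the sums were 8745 to 16758 in YSR, 10601 to 48713 in YR, 22360 to 63227 in OSR and 34969 to 85700 in OR. Neutrophils store Mmp9 protein, and adipocytes are found in marrow.

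Markers of the monocyte and macrophage lineage, from which osteoclasts form, mostly ran the other way. None of the 10 measured were higher in old rats at that threshold and 4 were lower (background 3.89%). For these 4 old minus young was -0.36 for Cd68, -0.54 for Mrc1, -0.55 for Cd14 and -1.26 for Adgre1. It was positive for 3 of the 10, at 0.13 for Lyz2, 0.35 for C1qa and 0.12 for C1qb. The summed signal of the 10 was 73863 to 92003 in YSR, 77114 to 91820 in YR, 65340 to 85799 in OSR and 59524 to 85716 in OR. For osteoblasts and osteocytes, which present RANKL, 0 of 8 measured markers met the threshold for age in either direction. The sums were 59413 to 82488 in YSR, 60426 to 80216 in YR, 57139 to 88685 in OSR and 71031 to 102437 in OR. These sums rest mostly on Spp1 and Col1a1, with mean log2 signals of 15.54 and 14.44, which other cells of the clot also express. Skeletal muscle markers (4 of 4 measured) were spread widely within the old groups, with sums of 1107 to 67814 in OSR and 940 to 37729 in OR. The sums were 16283 to 34591 in YSR and 25810 to 47131 in YR, and none of these markers met the threshold for age. Of 6 T cell markers Cd3d was higher in old rats by 1.17 (background 4.70%) and Cd8a was lower, with a difference of -1.01 (background 3.89%). None of these markers passed the adjusted threshold, and the part of these cell types in the members' differences was not tested.

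Of the wider RANK signalling and transcription list, 17 of 20 genes were measured and none passed the adjusted threshold in any comparison. At an unadjusted p under 0.05, 2 of the 17 were higher and 2 lower in old rats, against 4.70% and 3.89% of all probe sets, with a median age difference of -0.12. The higher ones were Prdm1, whose product represses inhibitors of osteoclast formation, by 0.87 (SE 0.21, limma adjusted p = 0.215), and the AP-1 subunit Fos by 0.62 (SE 0.17, adjusted p = 0.282). The lower ones were Trem2, a receptor that signals through Tyrobp, at -0.48 (SE 0.20, adjusted p = 0.519), and Irf8, a repressor of NFATc1, at -0.37 (SE 0.15, adjusted p = 0.504). Under rigid fixation these values were 1.35, 0.91, -0.66 and -0.74 for OR minus YR, in the same order.

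Of the acid and matrix resorption list all 20 genes were measured, among them proton pump subunits, the chloride channel and carbonic anhydrase. In old rats 1 of the 20 was higher and 1 lower at the unadjusted threshold, shares near the 4.70% and 3.89% of all probe sets, with a median of -0.06. The higher gene was Mmp9, with a mean log2 signal of 9.38 for YSR, 8.89 for YR, 10.51 for OSR and 12.37 for OR and an age difference of 2.31 (SE 0.37, limma adjusted p = 0.0954). The lower one was Atp6v0a1, a subunit of the proton pump, at -0.42 (SE 0.20, adjusted p = 0.581). Carbonic anhydrase 2, Car2, which supplies the protons, differed by 0.69 (SE 0.41), and the chloride channel Clcn7 by 0.51 (SE 0.50). The mean log2 signal of Car2 was 12.02 for YSR, 13.39 for YR, 13.14 for OSR and 13.67 for OR. The clot carried strong red cell signal, and the part of red cells in these values was not tested. For OR against YR 3 of the 20 were higher (background 4.80%) and 0 lower (background 3.54%). The higher ones were Mmp9 by 3.49, Src by 0.79 and Mmp14 by 0.74. The proton pump genes Atp6v1a, Atp6v1b2, Atp6v1c1 and Tcirg1 did not meet the threshold in that comparison.

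**Figure D4:**
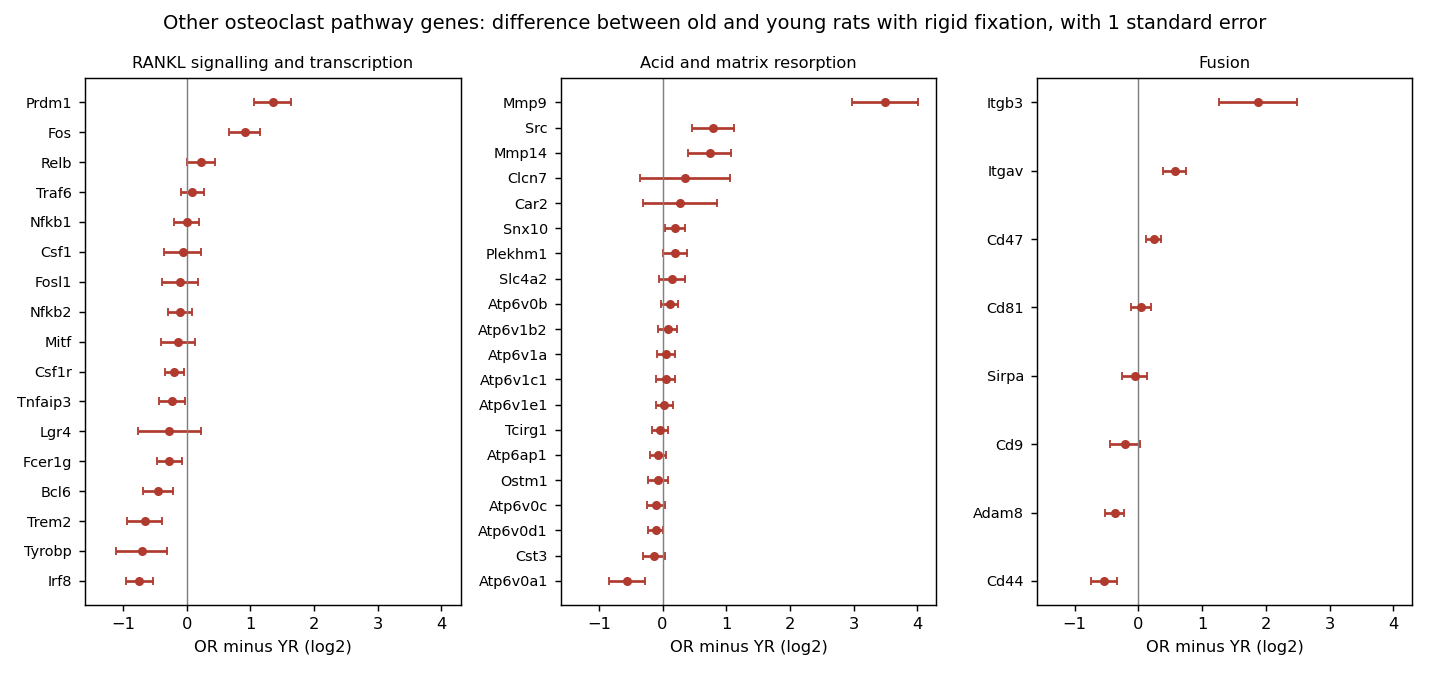
OR minus YR on the log2 scale, with 1 standard error from limma, for the measured genes of 3 osteoclast lists of 17, 20 and 8 genes, ordered by size. Most points lie within 1 of 0, and Mmp9 (3.49), Itgb3 (1.88) and Prdm1 (1.35) lie outside.

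With the 2 defining fusion genes not analysed here, fusion can be described only by more widely expressed genes, of which 8 of 10 were measured. The integrin subunit gene Itgb3, whose product pairs with that of Itgav to hold osteoclasts to bone and which platelets also carry, had a mean log2 signal of 10.61 for YSR, 10.70 for YR, 11.83 for OSR and 12.59 for OR. Its age difference was 1.55 (SE 0.43, limma adjusted p = 0.296). It was the only gene of this list past the unadjusted threshold for age (background 4.70% higher). For OR against YR 2 were higher (background 4.80%), Itgb3 by 1.88 (SE 0.61) and Itgav by 0.57 (SE 0.18). In that comparison 2 were lower (background 3.54%), the hyaluronan receptor Cd44 at -0.54 (SE 0.20) and the surface protease Adam8 at -0.37.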

How the data were processed

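RNA from day 3 fracture hematoma was measured on 12 Affymetrix rat arrays. The authors deposited linear signal intensity values for 31099 probe sets, with each array scaled to a trimmed mean of 500.2. The submitters' processing notes name GCOS 1.2, whereas the methods name PLIER summaries. Which software made these values was not settled, and they carry no detection calls. Gene symbols came from the platform annotation, with 1 symbol for 20832 probe sets, several for 436 and none for 9831.

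A floor of 1 was set on the signal before taking log2, and 57 control probe sets were left out. The groups were fitted as 4 means with limma 3.58.1 under R 4.3.3 (lmFit, then eBayes with trend), and p-values were adjusted by Benjamini-Hochberg over 31042 probe sets. In each pair the group named second was subtracted, and the interaction was OR minus OSR, minus YR minus YSR. The fit was tested on simulated data. Tables and plots used Python 3.11.15, pandas 2.3.3, numpy 2.4.6, matplotlib 3.10.9, and data.table (version 1.17.8). The members, lists, naming rule and alternatives were chosen with earlier results of these data known. Every member was named. Of each other list up to 4 genes were named, by largest age difference among those with a mean of at least 7.16, and any others named were chosen after their values were seen. Other days and the quantitative PCR were not used here.

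Replicate numbers were not treated as pairing the arrays: deviations from the group mean correlated with a median of 0.019 over 18 pairs of equal number and of 0.020 over 36 other pairs.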

Additional observations from a re-analysis of the deposited data

How the results depend on the processing

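Alternatives were quantile normalization, log2(signal + 16), leaving out dim probe sets, no intensity trend, the 6 arrays of a pair alone, the methods' test, a replicate block, the other probe set of a gene, each array left out in turn, and YSR 1 and OR 1 left out together. Over 57 gene comparisons and 1090 values under alternatives, 1074 kept their direction and side of the threshold, 8 newly passed it and 8 changed sign. None of the 57 passed the adjusted threshold in the main fit, so that keeping the side meant only staying above it. Sizes could move within this count, as for OR minus OSR of Ctsk, which went from 0.40 to 0.03 without YSR 1 and OR 1. OR minus YR of Tnfsf11 (0.09) was -0.10 with quantile normalization and -0.19 to 0.61 leaving out 1 array. Leaving out 1 array, Calcr ranged from -0.81 to 0.17 for age, from -0.24 to 1.72 for the interaction and from -0.08 to 1.87 for OR minus OSR, the far sign coming in each case without OSR 1, and age of Clcn7 ranged from -0.01, without YSR 1, to 0.82. Age of Mmp9 passed without YR 2 (adjusted p = 0.0360) or OSR 3 (0.0320), and its OR minus YR with the pair alone (0.0486) or without YR 2 (0.0406). The other 4 that newly passed were those of Acp5 and Slc9b2 given above.

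Adjusted calls over all probe sets for age (2) were 4 without the trend, 1 with the replicate block, 1 without YSR 1 and OR 1, and 1 to 80 leaving out 1 array, where the 80 came without OSR 3. For fixation (0) they were 3 without both arrays and 0 to 1 leaving out 1. For OR minus YR (1) they were 0 without the trend, 14 with the pair alone, 0 with the methods' test, 0 without both arrays and 0 to 4 leaving out 1, the 4 without OSR 3. For OSR minus YSR (1) they were 0 with quantile normalization, without the trend, with the pair alone, with the methods' test, with the replicate block and without both arrays, and 0 to 1 leaving out 1. For YR minus YSR (0) they were 27 without both arrays, and for OR minus OSR (0) they were 0 to 1 leaving out 1. At an unadjusted p under 0.05, the members higher with age (4) were 2 without dim probe sets, which removes both probe sets of Tnfsf11, and 2 to 4 leaving out 1 array, the 2 coming without YR 1 or OSR 2. The cause of the other shifts was not tested. At the methods' threshold (unadjusted p under 0.05 and a fold above 2) the methods' test called 795 probe sets for OR minus YR, 472 for OSR minus YSR, 520 for YR minus YSR and 467 for OR minus OSR, and 0 in each after Benjamini-Hochberg. With the replicate block all of the gene comparisons stayed above the adjusted threshold, as in the main fit.

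The limits are 3 pools per group, 1 day, dim signals for Tnfsf11 and Calcr, and arrays of unequal RNA quality.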
